A study of Mus musculus with 12 samples.

Results

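The 38 genes described here mark the non-parenchymal scaffold of the liver: its sinusoidal endothelium, its stellate cells and its extracellular matrix. They are defined by a list of gene symbols, with no threshold on a measured value, and all 38 were found among the 54532 genes of the deposited expression table. By role they fall into 7 genes shared by most blood vessel endothelium, 9 genes typical of the liver sinusoid, 8 genes of quiescent stellate cells or pericytes, 5 genes that stellate cells raise on activation, and 9 genes of the matrix and its regulators.

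Liver RNA of wild-type (WT) mice of the C57BL/6J strain was sequenced in 12 libraries, 3 for each of 4 groups. The groups were fed a CD diet (an abbreviation left unexplained in the labels), a high-fat diet (HFD), the CD diet with 2% dextran sulfate sodium (CD_DSS), and the high-fat diet with the same agent (HFD_DSS). Dextran sulfate sodium (DSS) is a polymer that damages the lining of the colon and is widely used to model colitis. No source used here gives the age or sex of the mice, the length of the diets or the timing of DSS. Whether the libraries of a group are separate animals is not labelled either, and the p-values therefore reflect only variation among these libraries, possibly technical.

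Liver sinusoids are lined by fenestrated endothelial cells that lack a firm basement membrane and that clear macromolecules from the blood through scavenger and lectin receptors. Stellate cells lie between this lining and the hepatocytes, store vitamin A while quiescent, and can become contractile, matrix-producing cells when the liver is injured. In whole-tissue RNA, fewer cells of a type and less RNA per cell cannot be told apart.

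Values are FPKM, fragments normalised to exon length and to a divisor per library that was 0.927 to 1.05 times its summed fragments. Library depth was 23.4 to 29.4 M fragments. Of the 38 genes, 36 reached 1 FPKM in at least 3 of the 12 libraries and were tested among 10806 genes with limma on log2(FPKM + 1), and a gene is called below when its Benjamini-Hochberg adjusted p over all tested genes was under 0.05. All 16 endothelial genes were at or above 2.41 FPKM in every library, and albumin (Alb), the main hepatocyte product, was at 16130 to 37498 FPKM. Fold changes on this scale are of FPKM + 1 and understate the change of genes near or under 1 FPKM. On principal component 1 over all genes, HFD 1, CD_DSS 1 and HFD_DSS 2 lay between the remaining libraries without and with DSS. This component held 43.3% of the variance, and results without these 3 libraries are given beside the main ones. Because they were picked from the same data on the axis that separates DSS, leaving them out favors larger DSS differences. The adjusted p-values of those fits are therefore descriptive.

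With DSS, averaged over both diets, 4 of the 36 tested genes rose and 1 fell, while 31 were not called. The genes that rose were Dcn, encoding the small proteoglycan decorin, Clec4g, a lectin receptor of the sinusoidal lining, Lyve1, a hyaluronan receptor, and Pdgfra, the alpha receptor for platelet-derived growth factor. The gene that fell was Tek, which encodes the angiopoietin receptor Tie2. The 5 calls among 36 stand beside 20% of all tested genes called in this comparison, 8.72% higher and 11.2% lower, and their share was not above that background. The median log2 fold change over the 36 genes was 0.03, against -0.01 over all tested genes. Without HFD 1, CD_DSS 1 and HFD_DSS 2, 10 of the 36 were called, 6 higher and 4 lower, beside 31.7% of all genes (14.0% higher and 17.6% lower). With no filter on low values, Dcn and Clec4g alone were called, beside 5.84% of all genes.

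**Figure D1:**
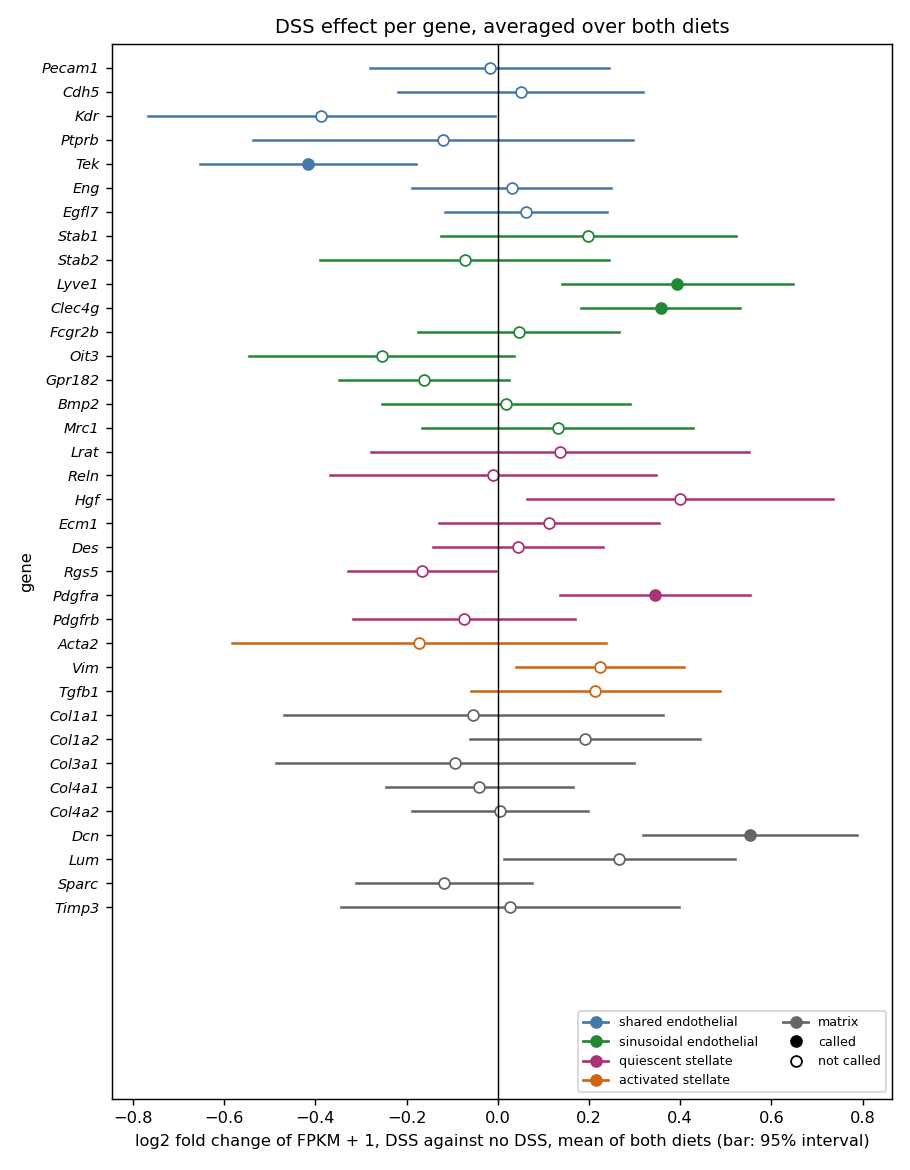
Log2 fold change of FPKM + 1 for DSS against no DSS, averaged over both diets (x axis), for the 36 tested genes (y axis), colored by role, with 95% intervals from limma and filled points for called genes. Dcn, Clec4g, Lyve1 and Pdgfra lie to the right of 0 and Tek to the left, while the intervals of the 3 fibrillar collagen genes include 0.

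The shared endothelial genes had no common direction with DSS. Tek had values of 4.91, 4.75 and 5.94 FPKM in CD, 3.32, 4.74 and 4.96 in HFD, 4.23, 3.02 and 3.92 in CD_DSS, and 2.41, 3.56 and 2.84 in HFD_DSS. All 6 libraries with DSS lay below 5 of the 6 libraries without it, and HFD 1 was the exception. Tek fell by 0.42 on the log2 scale (SE 0.11, adjusted p = 0.022, limma), and the drop was 0.40 on CD (adjusted p = 0.151) and 0.44 on HFD (adjusted p = 0.117), neither called by itself. The call was lost, with adjusted p from 0.0504 to 0.0572, when any of CD 3, HFD 2, HFD 3, CD_DSS 2, HFD_DSS 1 or HFD_DSS 3 was left out, and with each library rescaled to the same total (adjusted p = 0.0688).

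Kdr, the main receptor for vascular endothelial growth factor, had 9.63, 9.93 and 8.81 FPKM in CD, 4.95, 9.39 and 9.42 in HFD, 7.74, 5.67 and 8.96 in CD_DSS, and 3.86, 7.56 and 5.08 in HFD_DSS. Its highest library with DSS was CD_DSS 3 and its low library without DSS was HFD 1, so the groups overlapped and its log2 fold change of -0.39 (SE 0.17) was not called (adjusted p = 0.137). Without HFD 1, CD_DSS 1 and HFD_DSS 2 it was -0.65 (SE 0.12, adjusted p = 0.005), and Ptprb, a phosphatase that acts on Tie2, moved from -0.12 (adjusted p = 0.704) to -0.41 (adjusted p = 0.031). The 3 libraries left out were picked from the same data, so these 2 shifts are descriptive.

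Eng, encoding the TGF-beta co-receptor endoglin, was the most abundant shared endothelial gene. It stood at 25.52, 24.40 and 24.59 FPKM in CD, 16.83, 23.30 and 23.41 in HFD, 25.08, 23.40 and 27.28 in CD_DSS, and 19.73, 26.16 and 19.38 in HFD_DSS. Cdh5, the cadherin of endothelial junctions, had 10.83, 11.69 and 10.70 FPKM in CD, 6.94, 11.00 and 9.95 in HFD, 8.97, 11.29 and 14.60 in CD_DSS, and 8.51, 9.90 and 10.36 in HFD_DSS. For both genes the values with and without DSS overlapped, and the log2 fold changes were 0.03 (95% interval -0.19 to 0.25) for Eng and 0.05 (-0.22 to 0.32) for Cdh5. The adhesion molecule Pecam1 and the secreted factor Egfl7 had log2 fold changes of -0.02 and 0.06. Of the exon bases of Egfl7, 7.37% also belong to the gene model Gm20532 on the same strand.

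Among the sinusoidal genes, 2 of 9 rose and none fell, a share near the 20% of all tested genes called either way. Clec4g lies on chromosome 8 (GRCm38, 3707064 to 3720651, minus strand) and has 11 exon blocks. It had 19.20, 20.42 and 24.07 FPKM in CD, 24.89, 21.41 and 20.21 in HFD, 27.09, 28.78 and 33.81 in CD_DSS, and 25.70, 26.38 and 26.70 in HFD_DSS. Every library with DSS was above every library without it, by a narrow margin between HFD 1 and HFD_DSS 1. How many of all tested genes separate in this way was not counted. The log2 fold change of Clec4g was 0.36 (SE 0.08, adjusted p = 0.011), 1.28-fold. Clec4g kept this call in all 19 alternative fits (log2 fold change 0.31 to 0.43). Among these fits, median-of-ratios scaling divided every library by the same factor and nearly repeats the main fit. Leaving out HFD 1, CD_DSS 1 and HFD_DSS 2 together favors DSS differences.

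On the CD diet alone Clec4g was the only one of the 36 genes called with DSS (log2 fold change 0.48, SE 0.11, adjusted p = 0.040), where 4.80% of all genes were called. This call was lost without CD 1, CD 2, CD_DSS 2 or CD_DSS 3 (adjusted p = 0.109, 0.130, 0.0972 and 0.158), and also without libraries that are not part of this comparison but enter the same fit, namely HFD 2, HFD 3, HFD_DSS 1 or HFD_DSS 3 (0.0518 to 0.0588). Without HFD 1, CD_DSS 1 and HFD_DSS 2, 4 genes were called on CD (Clec4g, Stab1 and Egfl7 higher, Tek lower), beside 18.3% of all genes. On HFD its log2 fold change was 0.24 (SE 0.11, adjusted p = 0.226), and the difference between the diets was -0.24 (SE 0.16, 95% interval -0.59 to 0.11), not called. Of the exon bases of Clec4g, 5.93% overlap the gene model Gm16553 on the opposite strand, and no source used here says whether reads were counted by strand.

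Lyve1 (chromosome 7, 110850607 to 110863239, minus strand) had 5.63, 5.44 and 4.73 FPKM in CD, 4.18, 4.65 and 5.50 in HFD, 5.67, 5.78 and 9.62 in CD_DSS, and 6.26, 7.17 and 7.41 in HFD_DSS. No library with DSS fell within the range of those without, although CD 1 and CD_DSS 1 nearly touched, and CD_DSS 3 stood well above the rest. As for Clec4g, such separation was not counted over all tested genes. The log2 fold change of Lyve1 was 0.39 (SE 0.12, adjusted p = 0.035), and 0.28 without CD_DSS 3 (adjusted p = 0.0377). The call was lost, with adjusted p from 0.0546 to 0.0794, when CD 2, CD 3, HFD 1, HFD 2, HFD_DSS 2 or HFD_DSS 3 was left out. Lyve1 is also made by lymphatic endothelium and by some macrophages.

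Markers of Kupffer cells and other macrophages moved with DSS as well. Of 14 tested markers 8 rose and none fell, beside 8.72% of all tested genes higher and 11.2% lower. Their median log2 fold change was 0.54, with a summed level of 304.2 to 488 FPKM over the libraries without DSS and 347 to 636 over those with it. Marco, a scavenger receptor of macrophages, stood at 1.95 to 4.94 FPKM without DSS and 5.14 to 19.8 with it. Ccr2 and Ly6c2, markers of infiltrating monocytes, were under 1 FPKM in every library. The part of these cells in the rise of Lyve1 was not tested. Mrc1, Stab1 and Fcgr2b, receptors that macrophages and sinusoidal endothelium share, had log2 fold changes of 0.13 (adjusted p = 0.530), 0.20 (adjusted p = 0.365) and 0.05 (adjusted p = 0.790), and none was called.

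The other 7 sinusoidal genes were not called with DSS. Oit3, a zona pellucida domain protein typical of the sinusoid, had 14.38, 17.63 and 14.93 FPKM in CD, 9.77, 15.32 and 16.06 in HFD, 14.50, 12.87 and 16.32 in CD_DSS, and 8.50, 12.68 and 8.81 in HFD_DSS. Its lowest values were in HFD_DSS 1, HFD_DSS 3 and HFD 1, and its log2 fold change of -0.25 (SE 0.13) was not called (adjusted p = 0.197). Without HFD 1, CD_DSS 1 and HFD_DSS 2 it was -0.44 (adjusted p = 0.006). The hyaluronan scavenger receptor Stab2, the chemokine-scavenging receptor Gpr182 and Bmp2, the endothelial ligand that induces hepcidin in hepatocytes, had log2 fold changes of -0.07, -0.16 and 0.02.

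**Figure D2:**
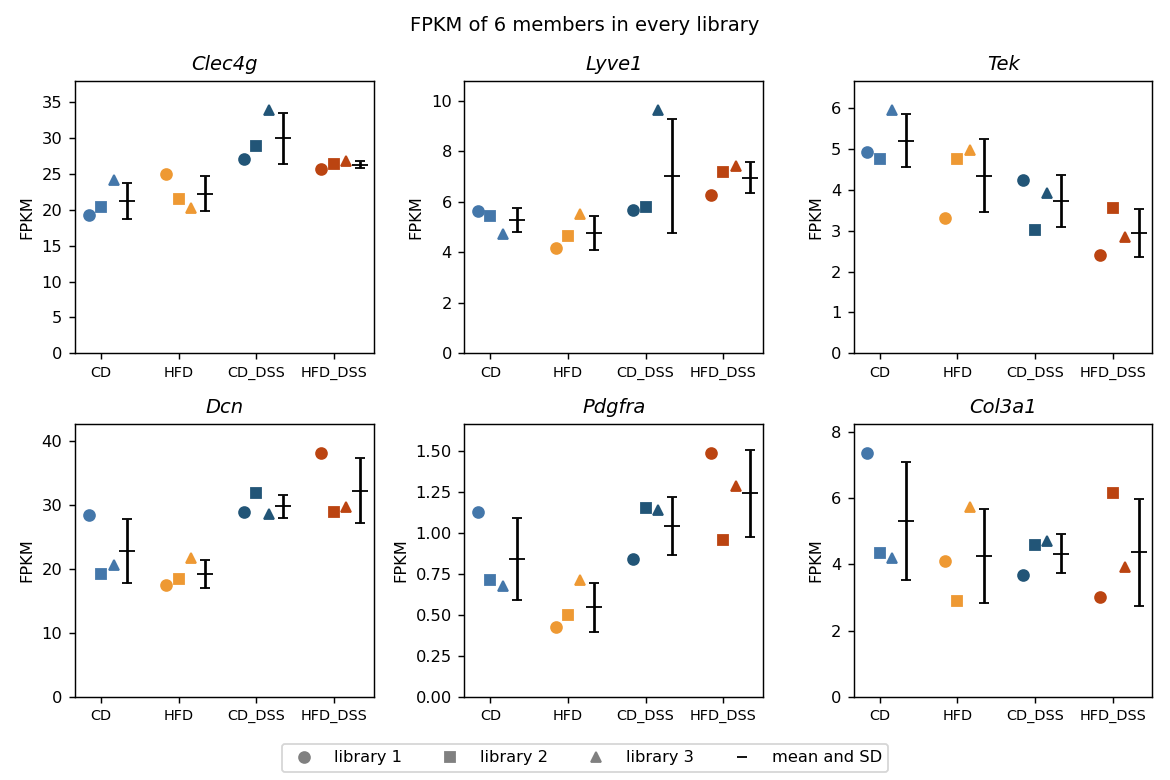
FPKM (y axes, from 0) of Clec4g, Lyve1, Tek, Dcn, Pdgfra and Col3a1 in each of the 12 libraries, by group (x axes), with the mean and SD of the 3 libraries beside them. The libraries with DSS lie above all others for Clec4g, Lyve1 and Dcn, and the groups overlap for Tek, Pdgfra and Col3a1. How many of all tested genes separate in this way was not counted.

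Promoter sequences from RefSeq (GRCm38.p6) were at hand for 26 of the 38 genes, among them Clec4g, Pdgfra and Tek of the 5 genes called with DSS. The 250 bases before the RefSeq start of each are shown to set the promoter of the rising lectin receptor Clec4g beside those of the rising receptor Pdgfra and the falling receptor Tek, 5′ to 3′ on the strand of the gene, with motif matches in capitals. Clec4g lies on the minus strand of chr8:3720652-3720901, Pdgfra on the plus strand of chr5:75152001-75152250 and Tek on the plus strand of chr4:94739039-94739288.
Clec4g: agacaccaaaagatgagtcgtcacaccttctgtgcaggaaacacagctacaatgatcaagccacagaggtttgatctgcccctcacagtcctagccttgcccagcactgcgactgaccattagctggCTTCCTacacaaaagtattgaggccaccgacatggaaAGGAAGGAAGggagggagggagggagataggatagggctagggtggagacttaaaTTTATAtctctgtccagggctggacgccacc
Pdgfra: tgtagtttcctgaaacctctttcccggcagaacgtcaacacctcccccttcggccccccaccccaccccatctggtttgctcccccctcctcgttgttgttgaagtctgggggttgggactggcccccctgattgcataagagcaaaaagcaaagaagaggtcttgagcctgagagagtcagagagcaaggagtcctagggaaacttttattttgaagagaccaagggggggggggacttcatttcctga
Tek: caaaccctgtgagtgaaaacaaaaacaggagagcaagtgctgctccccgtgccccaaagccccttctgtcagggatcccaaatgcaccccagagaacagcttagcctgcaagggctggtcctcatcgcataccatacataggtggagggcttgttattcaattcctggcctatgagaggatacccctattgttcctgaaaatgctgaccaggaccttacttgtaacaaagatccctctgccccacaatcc

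The motifs searched on both strands were the TATA box core TATAAA, the GATA factor motif AGATAA, the AP-1 motif TGANTCA, the STAT motif TTCNNNGAA, the ETS factor core AGGAAG, the SP and KLF factor motif CCCCGCCC and the CArG box bound by serum response factor. In Clec4g the capitals mark TATAAA on the reverse strand, whose first base is 31 bases before the start, and AGGAAG, once reversed at 123 and as an overlapping pair at 86 and 82 bases before it. The windows of Pdgfra and Tek hold none of these letters. AGGAAG was in 29.5% of 32851 promoter windows of this length and in 11 of the 26, and TATAAA was in 12.4% of all and in 4 of the 26. The windows of the 26 genes held TTCNNNGAA in 0 cases against 7.02% of all, the CArG box in 0 against 1.47%, AGATAA in 1 against 9.99%, TGANTCA in 1 against 6.75%, and CCCCGCCC in 5 against 16.1%.

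Of the 8 quiescent stellate genes 1 rose with DSS and none fell, beside 8.72% of all tested genes higher and 11.2% lower. This share was not above the 20% called either way. Pdgfra (chromosome 5, 75152292 to 75198215, plus strand, 27 exon blocks) had 1.13, 0.71 and 0.68 FPKM in CD, 0.43, 0.50 and 0.71 in HFD, 0.84, 1.15 and 1.14 in CD_DSS, and 1.49, 0.96 and 1.29 in HFD_DSS. Only CD 1 among the libraries without DSS reached the range of those with it, and 4 of the 6 libraries with DSS lay above it. These levels rest on 110 to 323 fragments per library.

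The log2 fold change of Pdgfra was 0.35 (SE 0.09, adjusted p = 0.028), and 0.68 with a pseudocount of 0.1 in place of 1. The call was lost, with adjusted p from 0.0605 to 0.0696, when CD 2, CD 3, HFD 2, CD_DSS 2, CD_DSS 3, HFD_DSS 1 or HFD_DSS 3 was left out. On HFD the log2 fold change was 0.53 (SE 0.13, adjusted p = 0.047) and on CD 0.16 (adjusted p = 0.528), and the difference of 0.38 (95% interval -0.04 to 0.79) was not called. The call on HFD was lost without CD 2, CD 3, HFD 1, HFD 2, HFD 3, CD_DSS 2, CD_DSS 3, HFD_DSS 1 or HFD_DSS 3 (adjusted p from 0.0561 to 0.177).

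Pdgfrb, the beta receptor of the same family, had 3.31, 2.20 and 1.73 FPKM in CD, 1.36, 1.83 and 2.13 in HFD, 1.69, 2.25 and 2.03 in CD_DSS, and 1.79, 1.82 and 1.78 in HFD_DSS. Its log2 fold change was -0.07 (95% interval -0.32 to 0.17). The ratio of Pdgfra to Pdgfrb was 0.272 to 0.392 in the libraries without DSS and 0.497 to 0.829 in those with it, a description only, since Pdgfra is itself called. In CD 1, where Pdgfra was highest without DSS, Pdgfrb was the highest of all 12 libraries.

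Ecm1, a matrix protein that holds latent TGF-beta inactive in the liver, was the most abundant of the 38 genes. It had 57.65, 44.29 and 44.43 FPKM in CD, 36.99, 44.45 and 54.17 in HFD, 47.97, 56.59 and 63.74 in CD_DSS, and 47.45, 46.50 and 42.67 in HFD_DSS, and the ranges overlapped (log2 fold change 0.11, SE 0.11). Rgs5, a regulator of G-protein signalling in pericytes, had 9.81, 8.02 and 8.05 FPKM in CD, 8.29, 7.40 and 9.05 in HFD, 7.52, 6.95 and 7.89 in CD_DSS, and 8.00, 7.49 and 6.50 in HFD_DSS. Its log2 fold change was -0.17 (SE 0.07, adjusted p = 0.133), and all 6 libraries with DSS lay below 5 of the 6 without it, HFD 2 being the exception.

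Hgf, the hepatocyte mitogen that stellate cells secrete, had 1.00 to 2.66 FPKM without DSS and 1.90 to 3.53 with it. Its log2 fold change of 0.40 (SE 0.15) was as large as that of Lyve1 but was not called (adjusted p = 0.088). Lrat, the enzyme that esterifies vitamin A for storage, varied widely between libraries of a group, at 7.08, 3.87 and 3.54 FPKM in CD_DSS and 4.16, 7.04 and 3.39 in HFD_DSS, and its log2 fold change of 0.14 had a 95% interval from -0.28 to 0.55. Reln and the intermediate filament gene Des had log2 fold changes of -0.01 and 0.04.

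None of the 3 tested activation genes was called with DSS, while 1 passed an unadjusted p of 0.05 in limma. Of all 10806 tested genes, 1737 were higher and 2042 lower at that unadjusted p. Acta2, encoding the smooth muscle actin of activated stellate cells and of vessel walls, had 1.99, 1.44 and 2.79 FPKM in CD, 1.53, 1.25 and 1.82 in HFD, 1.88, 1.32 and 1.90 in CD_DSS, and 0.65, 2.67 and 0.85 in HFD_DSS. The spread within HFD_DSS covered nearly the whole range of the other groups, and the log2 fold change was -0.17 (95% interval -0.58 to 0.24).

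Vim, the intermediate filament of mesenchymal cells, had 5.61, 5.60 and 4.78 FPKM in CD, 4.64, 3.86 and 5.00 in HFD, 5.24, 6.01 and 7.50 in CD_DSS, and 5.48, 5.37 and 5.88 in HFD_DSS. Its log2 fold change was 0.22 (SE 0.08, adjusted p = 0.081), and 0.30 without HFD 1, CD_DSS 1 and HFD_DSS 2 (adjusted p = 0.039). Tgfb1, the cytokine that drives matrix production in stellate cells, had 2.63, 1.69 and 1.81 FPKM in CD, 2.33, 1.87 and 2.24 in HFD, 1.81, 2.60 and 3.74 in CD_DSS, and 2.89, 2.17 and 2.51 in HFD_DSS. Its log2 fold change was 0.21 (adjusted p = 0.249), and 0.36 without those 3 libraries (adjusted p = 0.049). Macrophages and leukocytes also express Vim and Tgfb1, and the part of the macrophage markers described above was not tested.

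Tagln and Timp1 stayed under the filter. Tagln, a contractile protein of smooth muscle and activated stellate cells, had 1 to 12 fragments per library, and 62.4% of its exon bases lie on the antisense gene model Gm48529, so its level is uncertain. Timp1, the inhibitor of matrix metalloproteinases that rises early in liver fibrosis, had 0 to 17 fragments per library. The 17 fragments were in CD 1, at 0.78 FPKM, while CD 3 and HFD 2 were listed at 0 and all other libraries were at or under 0.21 FPKM.

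Among the 9 matrix genes, Dcn rose with DSS and the other 8 were not called. All tested genes had 8.72% higher and 11.2% lower, and the matrix share was not above the 20% called either way. Dcn (chromosome 10, 97479609 to 97518143, plus strand, 9 exon blocks) had 28.51, 19.21 and 20.64 FPKM in CD, 17.53, 18.43 and 21.72 in HFD, 28.87, 31.90 and 28.71 in CD_DSS, and 38.13, 28.92 and 29.78 in HFD_DSS. All 6 libraries with DSS were above all 6 without it, although CD 1 lay just under the lowest of them. The number of all tested genes that separate in this way was not counted. The mean of Dcn was 31.0 ± 3.7 FPKM with DSS and 21.0 ± 4.0 without (SD, n = 6 each).

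The log2 fold change of Dcn was 0.55 (SE 0.11, adjusted p = 0.006), 1.47-fold, and the call was kept in all 19 alternative fits (log2 fold change 0.49 to 0.64). As for Clec4g, these include the median-of-ratios fit, which nearly repeats the main one, and the fit without 3 libraries, which favors DSS differences. On HFD the log2 fold change of Dcn was 0.71 (SE 0.15, adjusted p = 0.029). With Pdgfra, Dcn made up the 2 of 36 genes called there, where 4.83% of all genes were called. The call on HFD was lost without HFD 2, HFD 3, HFD_DSS 1 or HFD_DSS 3 (adjusted p = 0.128, 0.0540, 0.114 and 0.0770). Without HFD 1, CD_DSS 1 and HFD_DSS 2, 6 genes were called on HFD (Dcn and Pdgfra higher, Oit3, Ptprb, Kdr and Tek lower), beside 19.1% of all genes, with Dcn at 0.72 (adjusted p = 0.032). On CD the log2 fold change of Dcn was 0.39 (SE 0.15, adjusted p = 0.150). The groups did not overlap there, which was likewise not counted over all tested genes. The difference between diets, 0.32 (95% interval -0.15 to 0.79), was not called.

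No collagen gene was called with DSS. Col3a1, a fibrillar collagen, had 7.36, 4.35 and 4.19 FPKM in CD, 4.10, 2.90 and 5.74 in HFD, 3.67, 4.60 and 4.72 in CD_DSS, and 3.01, 6.16 and 3.93 in HFD_DSS. The highest value was in CD 1 and the lowest in HFD 2, both without DSS. The log2 fold changes with DSS were -0.09 for Col3a1 (95% interval -0.49 to 0.30), -0.05 for Col1a1 (-0.47 to 0.36) and 0.19 for Col1a2 (-0.06 to 0.44). Narrower intervals held for the basement membrane chains Col4a1 (-0.24 to 0.16) and Col4a2 (-0.19 to 0.20).

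Within each library the ratio of Dcn to Col3a1 was 3.78 to 6.35 without DSS and 4.70 to 12.7 with it, again a description of a called gene beside an uncalled one. The 2 fibrillar genes Col1a1 and Col3a1 kept a ratio between 2.03 and 3.08 in all 12 libraries, Col3a1 being the higher. Sparc, a matricellular collagen-binding protein, was steady without DSS at 20.16, 19.85 and 19.79 FPKM in CD and 19.61, 19.23 and 19.97 in HFD, and spread to 14.88, 18.58 and 21.98 in CD_DSS and 16.08, 20.32 and 17.88 in HFD_DSS. Its log2 fold change was -0.12 (SE 0.09, adjusted p = 0.367).

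Lum, encoding lumican, a relative of decorin, had a log2 fold change of 0.27 (SE 0.12, adjusted p = 0.125), with 2.31 to 4.50 FPKM without DSS and 3.67 to 5.39 with it. Timp3, a matrix-bound metalloproteinase inhibitor, had 0.03 (95% interval -0.34 to 0.40), and 21.3% of its exon bases overlap Syn3 on the opposite strand.

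Portal fibroblasts and mesothelial cells also make collagen and decorin. Of their markers, 7 of 9 for portal fibroblasts (Thy1, Eln, Fbln2, Cd34, Pi16, Gli1 and Clec3b) and 6 of 7 for mesothelium (Msln, Upk3b, Upk1b, Wt1, Gpm6a and Lrrn4) were under 1 FPKM in all 12 libraries. The portal fibroblast markers Dpt and Entpd2 were at 1.41 to 3.95 and 0.55 to 1.20 FPKM, and the mesothelial list also holds Krt18, at 84.8 to 159 FPKM. The summed portal fibroblast markers were 4.04 to 6.61 FPKM without DSS and 3.73 to 7.35 with it. The part of these cells in the level of Dcn was not tested.

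**Figure D3:**
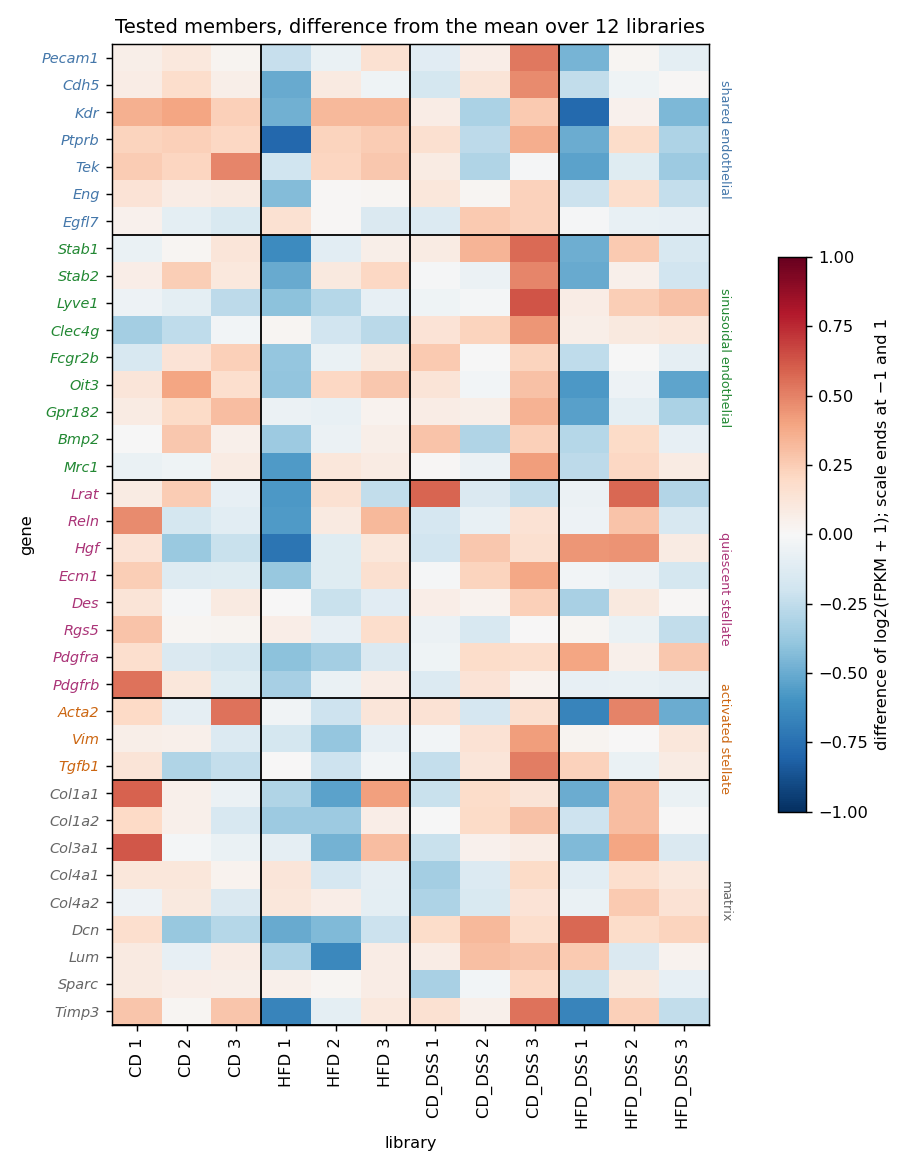
Difference of log2(FPKM + 1) from the mean over the 12 libraries (color, scale from -1 to 1) for the 36 tested genes (rows, by role) in each library (columns, by group). HFD 1 and HFD_DSS 1 are low in most endothelial rows and CD_DSS 3 is high, while the Dcn row is blue in 5 of the 6 libraries without DSS and red in all 6 with it.

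No gene of the set was called for the diet in limma. For HFD against CD without DSS, 0 of 36 genes were called at an adjusted p under 0.05, where 0.00925% of all genes were called. At an unadjusted p under 0.05 there were 0 of the 36, beside 358 higher and 368 lower of all 10806 tested genes. With DSS, HFD_DSS against CD_DSS gave 0 calls, with 0.102% of all genes called. At an unadjusted p under 0.05, 3 of the 36 were lower, beside 638 lower and 533 higher of all 10806 tested genes. Averaged over both DSS states, 0 were called, with 0.342% of all genes called. At an unadjusted p under 0.05, 7 of the 36 were lower, beside 742 lower and 622 higher of all 10806 tested genes. The difference between the DSS effects on the 2 diets gave 0 calls (0.00925% of all genes called). At an unadjusted p under 0.05 it gave 0 of the 36, beside 252 higher and 281 lower of all 10806 tested genes.

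The sign of the diet differences was nonetheless nearly uniform. Averaged over both DSS states, 32 of the 36 log2 fold changes were negative, including all 16 endothelial genes, while 49.0% of all tested genes were. The endothelial median was -0.24 against 0.00 over all tested genes. These genes vary together from library to library, so the 16 signs are not independent. Without HFD 1 the endothelial median was -0.16, without HFD_DSS 1 it was -0.20, without CD_DSS 3 it was -0.19 and 1 of the 16 signs turned, and without HFD 1, CD_DSS 1 and HFD_DSS 2 it was -0.22. For HFD against CD without DSS the endothelial median was -0.21, and leaving out HFD 1 brought it to -0.03 with 11 of 16 signs negative.

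Gpr182 was the one gene of the 36 in which the diets did not overlap. Its values were 10.90, 11.85 and 12.95 FPKM in CD and 10.83, 10.71 and 13.34 in CD_DSS, and the high-fat diet gave 9.81, 9.69 and 10.57 without DSS and 6.72, 9.50 and 8.02 with it. All 6 libraries of the high-fat diet lay below all 6 of the CD diet, by a narrow margin (10.57 against 10.71 FPKM). How many of all tested genes separate the diets in this way was not counted, so the separation is a description only. The log2 fold change of Gpr182 was -0.35 (SE 0.09, adjusted p = 0.105) and was not called. With DSS it was -0.48 (SE 0.12, adjusted p = 0.161) and without it -0.22 (adjusted p = 0.796). Library weights, which let the libraries differ in precision, gave calls of Gpr182 in the average and in the comparison with DSS, beside 2.43% and 1.36% of all genes. The weights were estimated from these same data and were lowest for HFD 1 (0.37), CD_DSS 1 (0.37) and HFD_DSS 2 (0.59). These calls are therefore descriptive. Stab1, a scavenger receptor, had -0.46 with DSS (SE 0.21, adjusted p = 0.459), and -0.78 without CD_DSS 1 and HFD_DSS 2 (and HFD 1, which is in neither group), where it was the only gene of the 36 called (adjusted p = 0.048), beside 0.763% of all genes. That comparison rests on only CD_DSS 2 and CD_DSS 3 (9.50 and 11.29 FPKM) against HFD_DSS 1 and HFD_DSS 3 (4.94 and 6.42), and is descriptive.

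The endothelial genes shared a pattern over libraries that crossed the groups. HFD 1 was the lowest of the 12 libraries in 8 of the 16 genes and HFD_DSS 1 in 6, while CD_DSS 3 was the highest in 10. The median over the 16 genes of log2(FPKM + 1), relative to the mean of all libraries, was 0.06, 0.15 and 0.10 in CD, -0.40, 0.01 and 0.07 in HFD, 0.08, -0.01 and 0.36 in CD_DSS, and -0.37, 0.05 and -0.13 in HFD_DSS. The 2 low libraries came from 1 group without and 1 group with DSS, and both from the high-fat diet, where the other 4 libraries were between -0.13 and 0.07.

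Deviations from the group means gave a median correlation of 0.671 over the 120 pairs of endothelial genes (12 libraries, as a description), and Ptprb and Kdr were closest at 0.978. Pairs of matrix genes had a median of 0.394 (36 pairs), with 0.966 for Col3a1 and Col1a1 but 0.311 for Dcn and Col1a1. All pairs share the same libraries, and an endothelial gene and a matrix gene had a median of 0.320 (144 pairs).

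The macrophage marker median did not follow the endothelial one. It was 0.14 in HFD 1 and 0.35 in HFD_DSS 1, the libraries with low endothelial medians, and 0.55 in CD_DSS 3, the highest in both. The median of 17 acute phase genes, liver genes switched on by inflammatory cytokines, was -1.05 to 0.00 without DSS, with HFD 1 the highest, and -0.73 to 1.62 with it, with CD_DSS 1 the lowest. What the endothelial pattern over libraries derives from was not tested.

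**Figure D4:**
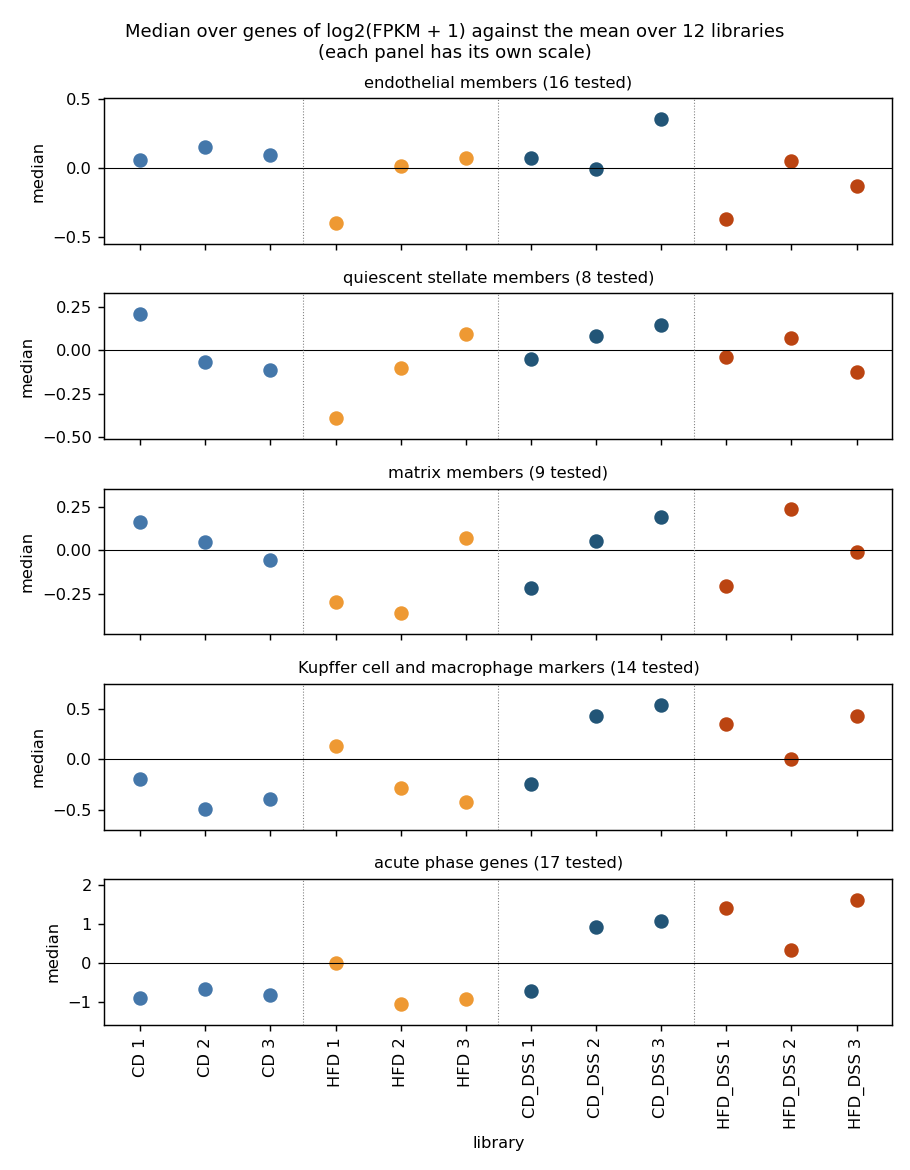
Median over genes of log2(FPKM + 1) relative to the mean over the 12 libraries (y axes, each panel with its own scale) for the endothelial, quiescent stellate and matrix genes described here and for macrophage and acute phase markers, in each library (x axis, colored by group). The endothelial medians are lowest in HFD 1 (-0.40) and HFD_DSS 1 (-0.37) and highest in CD_DSS 3 (0.36), and the acute phase medians separate most libraries with DSS from those without.

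CD 1 was high in several mesenchymal genes. It held the highest of the 12 values for Col1a1 (3.31 FPKM), Col3a1 (7.36), Pdgfrb (3.31), Rgs5 (9.81) and Reln (5.17), a large secreted glycoprotein, and the only Timp1 value above 0.21. By list, CD 1 was highest in 3 of 8 quiescent stellate, 1 of 5 activation and 2 of 9 matrix genes, and CD_DSS 3 in 2, 2 and 3. Quiescent stellate medians were 0.21 in CD 1, -0.07 and -0.11 in CD 2 and CD 3, and -0.39 in HFD 1, where 6 of the 8 genes were at their lowest.

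Related genes that are not among the 38 were counted with the same calls for DSS averaged over both diets, where 8.72% of all tested genes were higher and 11.2% lower. Of 33 tested further endothelial genes 3 rose and 3 fell, a share near that background, so the count is not a result about endothelial genes. Those that rose were the adhesion receptor Icam1 (log2 fold change 1.16, adjusted p = 0.013), which other cell types also express, the anticoagulant receptor thrombomodulin (Thbd, 0.81, adjusted p = 0.001) and Clec1b (0.36). Those that fell were Clec14a (-0.46), the secreted nuclease Dnase1l3 (-0.36) and Arhgef15 (-0.27). In the list of vascular growth factors and their signalling, 1 of 17 rose, the Notch target Hes1 (1.18), and 1 fell, the sphingosine phosphate receptor S1pr1 (-0.43). For the high-fat diet averaged over DSS states, 1 gene in each list was called, where 0.342% of all tested genes were called. These were the endothelial transcription factor Sox18 (-0.46, adjusted p = 0.019) and the growth factor Vegfb (-0.72, adjusted p = 0.020), both lower.

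Of 22 tested further stellate genes 4 rose and none fell, among them the transcription factor Gata6 (0.58), cytoglobin (Cygb, 0.52) and the extracellular superoxide dismutase Sod3 (0.39). This share, too, was near the 20% of all tested genes called. The astrocyte and stellate filament Gfap was under 1 FPKM in all libraries. In the smooth muscle and contractile list 6 of 15 rose, beside 8.72% of all tested genes, among them the actin-regulated coactivators Mrtfa (0.42) and Mrtfb (0.33) and their partner Srf (0.20), as did Actn1 (0.35), Kcnj8 (0.31) and Tpm1 (0.22), and Tpm2 fell by 0.40. Myh11, Cnn1 and Actg2, which define smooth muscle, were under 1 FPKM in every library, and hepatocytes and macrophages also express several of those that rose.

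The shares of the following lists stand beside 8.72% of all tested genes higher and 11.2% lower. In the TGF-beta list 2 of 21 rose, the targets Id3 (0.81) and Id2 (0.70), and 1 fell, Ccn2 (-0.59), a matricellular target of TGF-beta and of the Hippo pathway. The other matrix genes gave 4 of 27 higher and none lower: fibronectin (Fn1, 0.92), the collagen prolyl hydroxylase subunit P4ha1 (0.60), vitronectin (Vtn, 0.48) and Efemp2 (0.27). Fibronectin and vitronectin are plasma proteins that hepatocytes make in bulk. Among 10 tested genes of matrix turnover 3 rose and 2 fell, with the membrane metalloproteinase Mmp14 at 0.73, Ctsl at 0.41 and Adam17 at 0.23 against Mmp15 at -0.75 and Mmp19 at -0.21.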

How the data were processed

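The authors deposited gene-level FPKM values, 1 column per library, on build mm10 (from the submitters' processing notes). The aligner and counter were not given in the sources used here. Per the labels' protocols, total RNA went into a SMARTER kit for mRNA libraries. Multiplied by exon length (GENCODE M21, which named 99.9% of 54532 gene IDs), 97.0 to 97.3% of values under 500 fragments lay within 0.02 of a whole number, which gave the depths; 4 unnamed empty columns were not used. A median-of-ratios factor was 1.0075 in all 12 libraries, so the deposited values are already scaled between libraries. The 10806 genes reaching 1 FPKM in 3 or more libraries were fitted on log2(FPKM + 1) with the 4 group means in limma 3.58.1 (R 4.3.3, variance trend, two-sided, Benjamini-Hochberg adjustment over these genes, threshold 0.05), for 7 comparisons, which share libraries. The fit was tested on simulated data. The 38 genes and all lists were chosen with earlier results of these data known. Values per library are given for each called gene and for the 2 most abundant genes of each role, called genes of related lists are named (up to 6 per list), and Kdr, Acta2, Col3a1, Pdgfrb, Gpr182 and other genes with values beyond this rule were chosen after their values were seen. Alternatives were a pseudocount of 0.1, no filter, TPM and median-of-ratios scaling, library weights, a replicate block and leaving out each library, and, added after seeing the data, leaving out 3 libraries together. The values of 1 called gene of a related list are not reported here.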

Additional observations from a re-analysis of the deposited data

How the results depend on the processing

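Over 19 alternatives, Dcn and Clec4g kept their calls for DSS averaged over both diets, and Lyve1 kept its call in 12, Pdgfra in 11 and Tek in 11. None of these 5 genes changed sign in the average or on either diet. Median-of-ratios scaling divided all libraries by the same 1.0075, so that alternative nearly repeats the main fit and could hardly lose a call. The fit without 3 libraries favors DSS differences. With no filter on low values, the genes called numbered 2 for DSS averaged over both diets, 0 on CD and 0 on HFD. The shares of all genes called there were 5.84%, 0.606% and 0.502%. With library weights the called genes numbered 11, 5 and 9, beside 39.4%, 24.0% and 26.1% of all genes. The weights came from these same data and were lowest for HFD 1, CD_DSS 1 and HFD_DSS 2, so these counts are descriptive. These weights also gave 1 call for HFD_DSS against CD_DSS and 1 for the averaged diet effect, Gpr182 in both. There 1.36% and 2.43% of all genes were called. Without HFD 1, CD_DSS 1 and HFD_DSS 2 together, libraries picked from these data, they numbered 10, 4 and 6, beside 31.7%, 18.3% and 19.1% of all genes. HFD_DSS against CD_DSS then gave 1 (Stab1), beside 0.763% of all genes, with only HFD_DSS 1 and HFD_DSS 3 against CD_DSS 2 and CD_DSS 3. Leaving out each library in turn gave 2 to 6 for DSS averaged over both diets (2 without CD 3, HFD 2 or HFD_DSS 3, and 3 without CD 2, CD_DSS 2 or HFD_DSS 1), 0 to 1 on CD and 0 to 3 on HFD. The shares of all genes called in these fits were 12.2 to 24.8% for the average, 0.587 to 12.0% on CD and 0.0838 to 8.47% on HFD. The cause of these shifts was not tested. Libraries with the same replicate number did not deviate together (correlations -0.36 to 0.26 over 18 pairs), so the numbers were not taken as pairs. With the replicate number as a block the counts were 5 for the average, 0 on CD and 1 on HFD, beside 17.0%, 2.68% and 2.57% of all genes. Over all genes, 43.7% of the calls for DSS averaged over both diets were higher, and 59.4% with TPM scaling, which also let 13268 genes pass the filter; with TPM, 1 of the 36 genes changed sign. Depth kept Tagln (1 to 12 fragments per library) and Timp1 (0 to 17) under the filter.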
